A study of Bos taurus with 2 samples.

Results

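SPIC, SLC5A11, DISP3 and FOXR1 are 4 protein-coding genes of Bos taurus with many transcript counts in blastocyst nuclei and almost none in blastoid nuclei. They were picked by symbol, as 4 of the 35643 features measured in both libraries, because of that difference. The contrast between the libraries therefore describes how they were chosen and is given without a test. What the choice did not use is which blastocyst nuclei carried the genes, and whether the same nuclei carried several of them.

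Both samples were single-nucleus RNA libraries made from frozen material with 10x Genomics Chromium chemistry, and transcripts were counted as unique molecular identifiers (UMIs). The blastocyst group was 1 library of day 8 embryos. The blastoid group was 1 library of blastocyst-like aggregates, named 3L_Blastoid, started in microwells from 8 bovine expanded potential stem cells (bEPSC), 8 extraembryonic endoderm cells (bXEN) and 16 trophoblast stem cells (bTSC). The aggregates were kept in a medium with CHIR99021, activin A and LIF. Both samples carry the genotype label WT, and the labels do not give the number of embryos or aggregates pooled. With 1 library per group no difference between blastoid and blastocyst could be tested, and the intervals below cover counting error only.

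SPIC belongs to the ETS family of transcription factors and is best known from macrophages that recycle iron. SLC5A11 is a sodium-coupled transporter of myo-inositol and glucose. DISP3 is a multipass membrane protein related to Patched and Dispatched, with a sterol-sensing domain, and FOXR1 is a forkhead transcription factor. The blastocyst holds an outer trophectoderm, which founds the placenta, and an inner cell mass that separates into epiblast, the source of the embryo, and hypoblast, which lines the yolk sac.

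After filtering, 828 blastocyst nuclei with 6865534 UMIs and 1914 blastoid nuclei with 7481886 UMIs remained, so the total depth was similar, while the median nucleus held 7650 UMIs in the blastocyst and 2008.5 in the blastoid. Only 1 barcode sequence occurred in both libraries. Clusters were made without the 4 genes and without the lineage markers, and were then named from the markers. The blastocyst gave a hypoblast-like class of 392 nuclei (PDGFRA, KIT, HNF4A), a trophectoderm-like class of 233 (GATA2, GATA3, TFAP2C), an epiblast-like class of 79 (NANOG, SOX2, PRDM14), and a shallow trophectoderm-like cluster of 124 nuclei with a median of 1848.5 UMIs (KRT18, KRT19), which was kept apart. The names have limits. Of the 3 epiblast genes, NANOG differed between the epiblast-like and hypoblast-like classes (119 and 19.3 counts per 1000000 UMIs of the class, CPM), while PRDM14 was at 61.8 and 57.5 CPM and SOX2 at 41.2 and 35.8 CPM. HNF4A, a hypoblast factor, had a UMI in 94.9% of the epiblast-like class as well as in 87.0% of the hypoblast-like class, and the hypoblast genes AFP, TTR and APOB had no UMI in the blastocyst library. The blastoid gave a trophectoderm-like class of 154 nuclei, an unnamed cluster of 141 led by LMX1A and DCC, and 1619 ribosomal-rich barcodes. No blastoid cluster took the hypoblast-like or epiblast-like name.

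SPIC (ENSBTAG00000009904) had 1255 UMIs in the blastocyst and 1 in the blastoid. SLC5A11 (ENSBTAG00000003467) had 1126 and 2. DISP3 (ENSBTAG00000015533) had 593 and 3, and FOXR1 (ENSBTAG00000014606) had 506 and 1. For each gene nearly all UMIs were in the blastocyst library. Over the whole library SPIC was 183 CPM (95% Poisson interval 173 to 193) in the blastocyst and 0.134 (0.00338 to 0.745) in the blastoid, which is 1368-fold lower (245 to 54063). The blastoid level was 614-fold lower for SLC5A11 (169 to 5072), 215-fold lower for DISP3 (73.4 to 1048) and 551-fold lower for FOXR1 (98.5 to 21823). At the blastocyst level the blastoid library would have held 3792 UMIs of the 4 genes together, and it held 7. All 4 genes were at least 2-fold lower, as were 16.1% of the 10301 genes whose UMIs, summed over both libraries, reached 100. Of the 3028 genes with at least 500 blastocyst UMIs, 0.165% had at most 3 UMIs in the blastoid, namely these 4 genes and PIWIL2, a germline PIWI protein with 1152 blastocyst UMIs. A smaller share of expressing cells and less RNA in each cell cannot be told apart in these library sums.

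**Figure D1:**
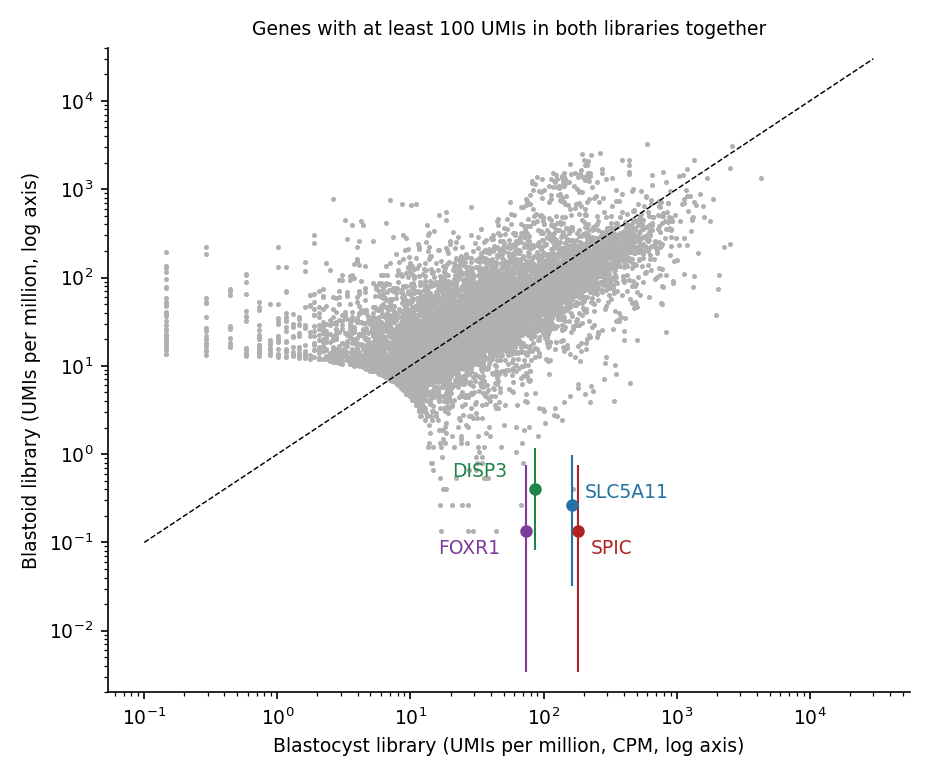
Each point is a gene, with its level in the blastocyst library on the x axis and in the blastoid library on the y axis (CPM, log axes). Genes without a UMI in a library are drawn at the level of 1 UMI, the dashed line marks equal levels, and the vertical bars of the 4 coloured genes are 95% Poisson intervals. SPIC, SLC5A11, DISP3 and FOXR1 lie far under the line, at 1 to 3 blastoid UMIs each.

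The genes next in the order of blastoid to blastocyst ratio were FGFR4, DPPA3, ACOT11, SLC1A3 and CAPN8. FGFR4, a fibroblast growth factor receptor, had 466 blastocyst and 2 blastoid UMIs, close to FOXR1. DPPA3, a maternal and pluripotency factor, had 477 and 6. The genes in this range did not share 1 lineage pattern. ACOT11, an acyl-CoA thioesterase, was at 596 CPM in trophectoderm-like and 237 CPM in hypoblast-like nuclei, and PIWIL2 was at 209 and 147 CPM, whereas CAPN8 was at 2.17 and 110 CPM.

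All 4 genes were higher in the hypoblast-like class than in the trophectoderm-like class of the blastocyst. SPIC stood at 272 CPM (254 to 290) in hypoblast-like, 223 CPM (192 to 258) in epiblast-like, 228 CPM (187 to 276) in shallow trophectoderm-like and 33.4 CPM (26.4 to 41.7) in trophectoderm-like nuclei. For SPIC the first 3 of these levels lay close together and the trophectoderm-like level was apart from them. Part of the hypoblast list moved with SPIC in the shallow cluster. Among the 17 listed whose UMIs, summed over shallow and trophectoderm-like nuclei, reached 10, 11 were at least 2-fold higher in the shallow cluster and 2 lower, against 22.4% and 18.5% of 10737 genes. HNF4A was at 172 CPM, PDGFRA at 133 CPM and FN1 at 1838 CPM, against 10.4, 13.0 and 378 CPM in trophectoderm-like nuclei, while LRP2 was at 744 against 3161 CPM and LAMA1 at 12.9 against 119 CPM. Summed, the list was at 5348 and 4872 CPM. Among 20 trophectoderm genes that reached the same minimum, 7 were at least 2-fold higher and 5 lower, with GATA2 at 101 against 480 CPM and KRT18 at 3809 against 825 CPM. Of the 1772 KRT18 UMIs in the shallow cluster, 795 were in 1 nucleus. After thinning to 2000 UMIs per nucleus, KRT18 was in 55.7% of shallow and 77.0% of trophectoderm-like nuclei. The relation of these marker levels to the SPIC level was not tested. SLC5A11 stood at 240 CPM (224 to 257) in hypoblast-like, 251 CPM (218 to 287) in epiblast-like, 49.4 CPM (31.3 to 74.2) in shallow trophectoderm-like and 48.1 CPM (39.6 to 58.0) in trophectoderm-like nuclei. The inositol transporter thus had a high pair and a low pair of classes, and the intervals overlapped inside each pair. DISP3 was at 246 CPM (213 to 282) in epiblast-like, 113 CPM (102 to 125) in hypoblast-like, 25.8 CPM (13.3 to 45.1) in shallow trophectoderm-like and 3.90 CPM (1.79 to 7.41) in trophectoderm-like nuclei. For DISP3 no neighbouring intervals overlapped. FOXR1 was at 132 CPM (119 to 145) in hypoblast-like, 53.7 CPM (34.8 to 79.3) in shallow trophectoderm-like, 53.3 CPM (38.7 to 71.6) in epiblast-like and 3.04 CPM (1.22 to 6.26) in trophectoderm-like nuclei. The forkhead gene was therefore highest in the hypoblast-like class, with overlapping intervals only between the middle pair.

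**Figure D2:**
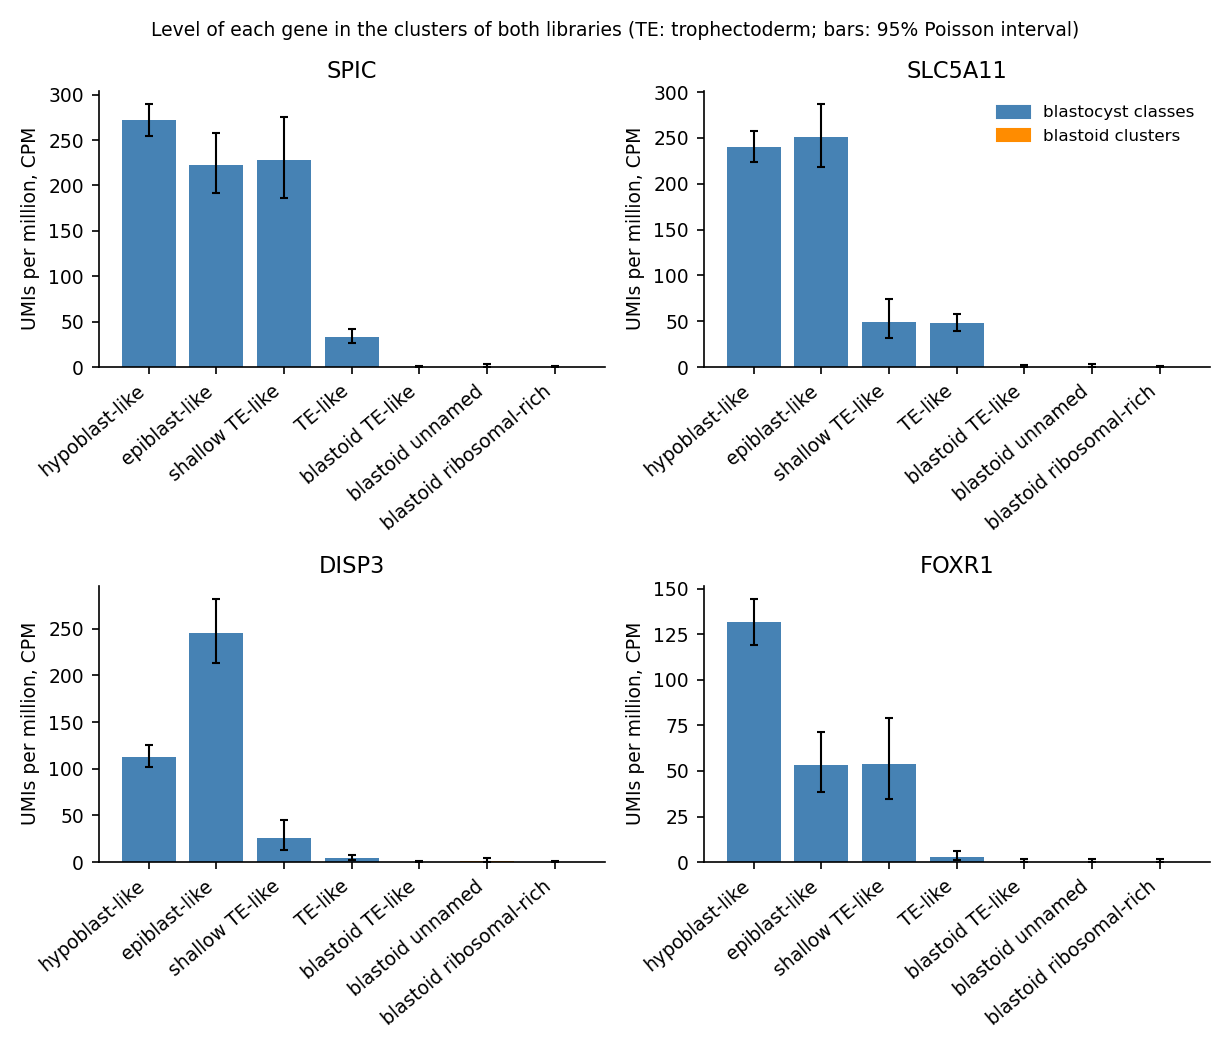
Bars give CPM (y axis) for each gene in the 4 blastocyst classes (blue) and the 3 blastoid clusters (orange, near 0), and black lines are 95% Poisson intervals. SPIC and SLC5A11 are high in hypoblast-like and epiblast-like nuclei, SPIC as high in the shallow trophectoderm-like cluster (228 CPM), DISP3 is highest in the epiblast-like class, and FOXR1 is highest in the hypoblast-like class.

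The hypoblast-like level exceeded the trophectoderm-like level 8.13-fold for SPIC (6.44 to 10.4), 4.99-fold for SLC5A11 (4.08 to 6.14), 28.9-fold for DISP3 (15.1 to 63.7) and 43.3-fold for FOXR1 (20.8 to 108). Of the 7128 genes with at least 100 UMIs in both classes together, 12.7% were at least 2-fold higher in hypoblast-like nuclei, 4.45% at least 4-fold and 1.91% at least 8-fold. All 4 genes passed the 4-fold mark and SPIC, DISP3 and FOXR1 the 8-fold mark. SPIC passed the latter only in this setting, and over 9 alternatives its log2 ratio was 1.93 to 2.99, below 8-fold in each, and below 4-fold when nuclei were gated on markers. FOXR1 was also below 8-fold with gates, at a log2 ratio of 2.88. Their median log2 ratio was 3.94, against 0.19 over all 7128 genes. The epiblast-like level exceeded the trophectoderm-like level 6.67-fold for SPIC (5.09 to 8.83), 5.21-fold for SLC5A11 (4.12 to 6.62) and 63.0-fold for DISP3 (32.5 to 140). These 3 genes passed the 4-fold mark, and DISP3 the 8-fold mark, where 11.5% of 5295 genes reached 2-fold, 4.68% reached 4-fold and 2.15% reached 8-fold. FOXR1, with 44 and 7 UMIs in these classes, was under the minimum of 100 UMIs for that count, at a ratio of 17.6 (7.85 to 46.2). With gates or the shallow cluster pooled, SPIC was below 4-fold (log2 ratios 1.90 and 1.75). With at least 1000 genes per nucleus, where the name went to other nuclei, SLC5A11 was below 4-fold (0.0048) and DISP3 below 8-fold (2.66). Genes low in the blastoid had this lineage pattern more generally. Of the 50 lowest genes other than these 4, 37 were at least 2-fold higher in hypoblast-like than in trophectoderm-like nuclei and 4 showed the opposite, against 12.8% and 11.6% of all 4039 genes ranked.

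**Figure D3:**
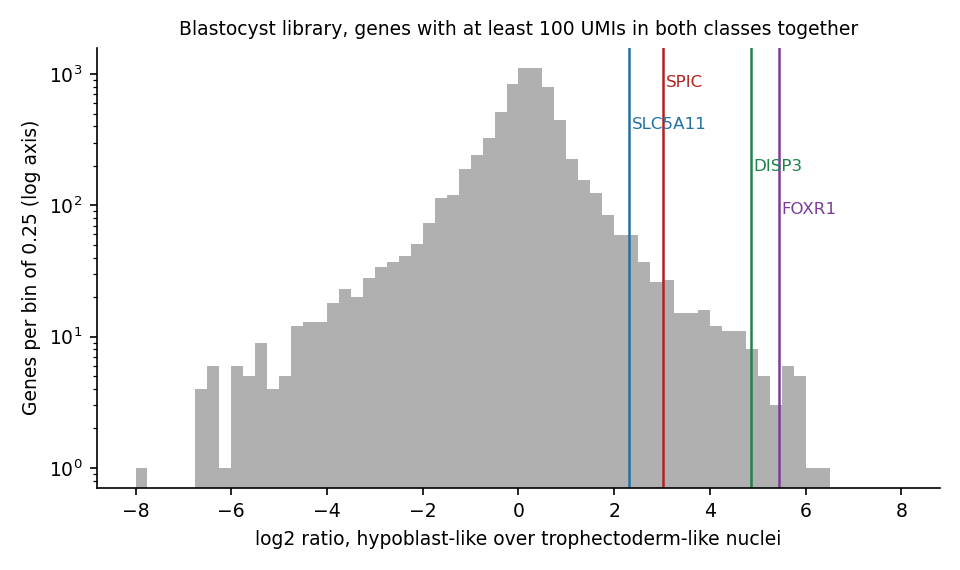
The histogram counts genes (y axis, log) by their log2 ratio of hypoblast-like over trophectoderm-like nuclei in the blastocyst (x axis), and coloured lines mark the 4 genes. SLC5A11 (2.32), SPIC (3.02), DISP3 (4.85) and FOXR1 (5.44) lie in the right tail.

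Between epiblast-like and hypoblast-like nuclei the 4 genes differed in direction. DISP3 was 2.18-fold higher in epiblast-like nuclei (1.83 to 2.59), and 2.54% of 6134 genes were at least 2-fold higher. FOXR1 was 2.47-fold lower there (1.81 to 3.45), and 2.49% of genes were at least 2-fold lower. SPIC was 1.22-fold lower (1.04 to 1.44), and the SLC5A11 ratio was 1.04 (0.892 to 1.22). The sizes, and for SPIC, SLC5A11 and DISP3 the direction, depended on which nuclei took the epiblast-like name, and 4 of the alternative settings gave no such class. When nuclei were gated on UMIs of a few markers instead of clustered, 131 of the 202 gated epiblast-like nuclei came from the hypoblast-like class, and the log2 ratio went from 1.12 to 0.28 for DISP3 and from -1.30 to -0.19 for FOXR1. At a finer clustering the SPIC log2 ratio turned from -0.28 to 0.08. With at least 1000 genes per nucleus the log2 ratio was -1.84 for DISP3 and -2.57 for SLC5A11, in a cluster of 35 nuclei that took the name and held 0 of the original epiblast-like nuclei.

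That finer clustering split the blastocyst into 9 clusters. In 16 nuclei led by MYO3B, TMEFF2 and HMGA2, all from the epiblast-like class, DISP3 reached 277 CPM (203 to 369) and FOXR1 had no UMI, where 21.8 would have been counted at the hypoblast-like level. This cluster took no lineage name, so its nuclei are outside the epiblast-like class of the finer clustering. FOXR1 differed also between the largest hypoblast-like clusters, at 109 CPM (92.3 to 128) and 156 CPM (134 to 180). The trophectoderm-like nuclei fell into a cluster of 132 with SPIC at 46.3 CPM (35.7 to 59.2) and a cluster of 102 with SPIC at 14.0 CPM (7.44 to 23.9), while SLC5A11 was at 49.9 and 47.3 CPM. A cluster of 63 nuclei, 57 of them from the shallow cluster and 6 hypoblast-like, had SPIC at 379 CPM (307 to 463) in 27 nuclei, with SLC5A11 at 75.0 CPM (45.2 to 117). Another 63 of the shallow nuclei formed a ribosomal-rich cluster with SPIC at 102 CPM (63.7 to 154).

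Counted as nuclei, SPIC had at least 1 UMI in 390 of 828 blastocyst nuclei, SLC5A11 in 400, DISP3 in 282 and FOXR1 in 254. The highest count in 1 nucleus was 24 for SPIC, 13 for SLC5A11, 14 for DISP3 and 15 for FOXR1. For each gene the median carrying nucleus had 2 UMIs. In hypoblast-like nuclei the share with a UMI was 65.8% for SPIC (60.9 to 70.5, exact binomial), 68.6% for SLC5A11, 49.2% for DISP3 and 52.0% for FOXR1. In epiblast-like nuclei it was 70.9% for SPIC, 77.2% for SLC5A11, 87.3% for DISP3 (78.0 to 93.8) and 32.9% for FOXR1 (22.7 to 44.4). DISP3 was thus carried by most epiblast-like nuclei and FOXR1 by a minority. After each nucleus was thinned to 2000 UMIs, 36.7% of epiblast-like nuclei kept a DISP3 UMI, against 16.9% of hypoblast-like nuclei, and for FOXR1 the shares were 12.7% and 20.1%. SPIC (35.4% and 33.1%) and SLC5A11 (34.2% and 33.6%) were then at nearly the same share in both classes. Thinning left out 8 hypoblast-like, 3 trophectoderm-like and 63 shallow nuclei with fewer UMIs.

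Trophectoderm-like nuclei carried DISP3 in 3.86% (1.78 to 7.21) and FOXR1 in 3.00% (1.22 to 6.09), with never more than 1 UMI. HNF4A, which marks the other classes, was found in 4.72% of the same nuclei, and the trophectoderm gene GATA2 in 5.10% of hypoblast-like nuclei, at median depths of 8760 and 7669 UMIs. The shares of DISP3 and FOXR1 are below these. After thinning, however, DISP3 was in 0.870% and FOXR1 in 0.435% of trophectoderm-like nuclei, against 0.435% for HNF4A. The part of free RNA in these shares was not tested. SPIC was in 16.7% (12.2 to 22.2) and SLC5A11 in 25.3% (19.9 to 31.4) of trophectoderm-like nuclei, above both reference shares. The comparison depends on the marker, since the trophectoderm markers GATA3 and KRT18 were in 17.9% and 61.7% of hypoblast-like nuclei. After thinning the SPIC and SLC5A11 shares were 5.22% and 8.70%, and that of GATA3 in hypoblast-like nuclei was 7.29%. The trophectoderm-like level as a percentage of the hypoblast-like level was 12.3 for SPIC (9.61 to 15.5) and 20.1 for SLC5A11 (16.3 to 24.5), beside 2.31 for FOXR1 and 3.46 for DISP3. Of 18 hypoblast markers with at least 100 UMIs in both classes together, 10 were below SPIC, such as HNF4A at 1.90, PDGFRA at 3.59 and FN1 at 9.16, and 8 were above SLC5A11, such as RSPO3 at 23.9 and GATA6 at 54.3. Of these 8, 4 were higher in trophectoderm-like than in hypoblast-like nuclei (LAMC1 at 125, LAMB1 at 131, LAMA1 at 1083 and LRP2 at 2509), so the list does not set 1 level for a hypoblast gene. The 4 genes therefore did not keep 1 proportion to each other across classes. SLC5A11 made up 54.4% (47.3 to 61.4) of their joint UMIs in trophectoderm-like and 31.8% (29.9 to 33.6) in hypoblast-like nuclei, and SPIC made up 63.9% (56.0 to 71.2) in the shallow cluster and 35.9% (34.0 to 37.8) in hypoblast-like nuclei. In the 99 blastocyst barcodes left out for having under 500 genes, SPIC had 13 UMIs, a level of 155 CPM (82.4 to 265), SLC5A11 had 1, and DISP3 and FOXR1 had 0. The part of RNA from outside the nuclei in the shallow cluster's SPIC level was not tested.

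Most hypoblast-like and epiblast-like nuclei carried several of the genes. At least 2 of the 4 were found in 80.4% of hypoblast-like (76.1 to 84.2), 92.4% of epiblast-like (84.2 to 97.2), 14.5% of shallow trophectoderm-like (8.84 to 22.0) and 8.58% of trophectoderm-like nuclei (5.32 to 12.9). All 4 were found in 71 of 828 nuclei, of which 55 were hypoblast-like, 15 epiblast-like and 1 shallow. None of the 4 was found in 20 hypoblast-like nuclei, whose median depth was 3509.5 UMIs, and the 55 with all 4 had a median of 9659. After thinning to 2000 UMIs, 2 or more genes were found in 27.6% of hypoblast-like nuclei, 38.0% of epiblast-like nuclei and 0 of 230 trophectoderm-like nuclei, which allows up to 1.59% of nuclei with 2 genes detected at that reduced depth (exact upper limit).

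**Figure D4:**
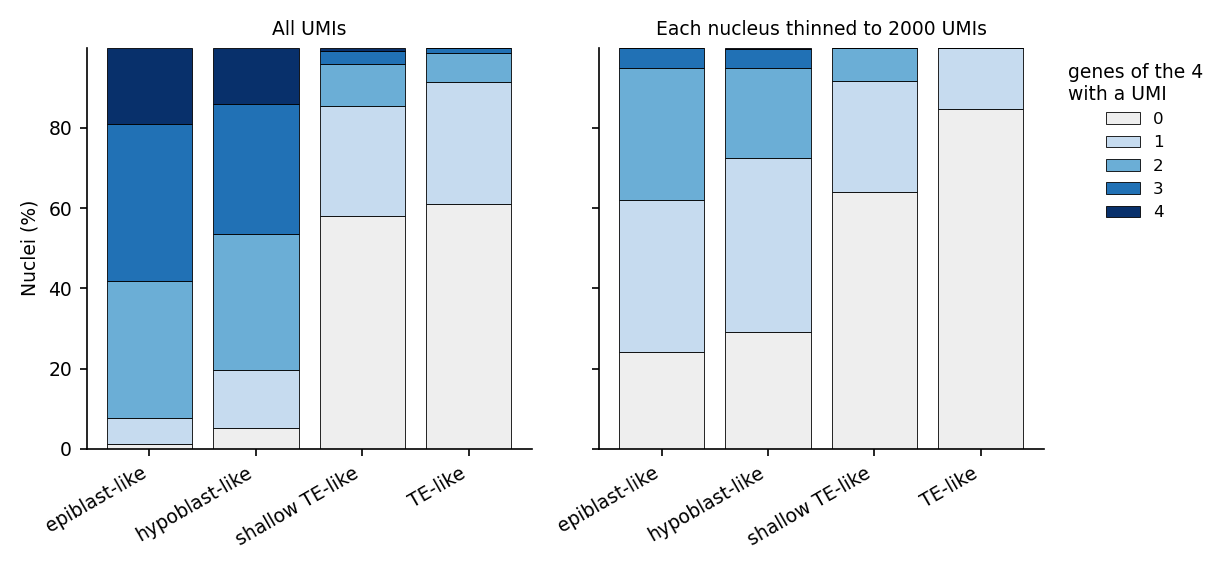
Stacked bars give the percentage of nuclei (y axis) in each blastocyst class (x axis) by how many of the 4 genes had a UMI, with all UMIs (left) and after thinning to 2000 UMIs per nucleus (right). Nuclei with 2 or more of the genes are mostly epiblast-like and hypoblast-like in both panels.

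Over all blastocyst nuclei and with all UMIs, carrying 1 of the genes went with carrying another. SLC5A11 was found in 63.1% of nuclei with SPIC (58.1 to 67.9) and in 35.2% of those without it (30.7 to 39.8), and DISP3 in 50.0% of nuclei with SLC5A11 and 19.2% of those without. In the 688 nuclei with at least 4000 UMIs these shares were 68.3% and 42.6% for SLC5A11, at median depths of 8705 and 8286 UMIs, and 50.6% and 24.1% for DISP3, at 8962 and 7942. After thinning, which kept 754 nuclei and fewer UMIs in each, SLC5A11 was in 26.5% of nuclei with SPIC (20.3 to 33.5) and 23.0% without (19.6 to 26.7), and DISP3 in 15.0% with SLC5A11 (10.1 to 21.1) and 12.2% without (9.63 to 15.2). FOXR1 was then in 18.9% of nuclei with SLC5A11 (13.5 to 25.4) and 10.1% without (7.76 to 12.9), with intervals apart, and in 16.8% with SPIC (11.7 to 22.9) and 10.7% without (8.30 to 13.6). It was in 18.6% of nuclei with DISP3 (11.4 to 27.7) and 11.3% without (8.95 to 13.9). Of the thinned pairs given, the intervals were apart only for FOXR1 with SLC5A11, over all classes together. Among thinned hypoblast-like nuclei FOXR1 was in 21.7% with SLC5A11 (14.9 to 29.8) and 19.2% without (14.6 to 24.6). Among thinned epiblast-like nuclei it was in 18.5% with SLC5A11 (6.30 to 38.1) and 9.62% without (3.20 to 21.0). The intervals overlapped in both classes. Inside the hypoblast-like class, with all UMIs, the contrasts were smaller than over all nuclei. SLC5A11 was found there in 70.9% of nuclei with SPIC (65.0 to 76.4) and in 64.2% of those without (55.4 to 72.3), and the nuclei with SPIC were also deeper, at a median of 8224 against 6986 UMIs. In trophectoderm-like nuclei SLC5A11 was found in 38.5% of the 39 nuclei with SPIC (23.4 to 55.4) and in 22.7% of the 194 without (17.0 to 29.2), at median depths of 8815 and 8651 UMIs, with overlapping intervals. FOXR1 was found in 51.8% of hypoblast-like nuclei with DISP3 and in 52.3% of those without. In the same class DISP3 was in 52.8% of nuclei with SLC5A11 (46.6 to 58.9) and 41.5% without (32.7 to 50.7). There FOXR1 was in 55.0% of nuclei with SLC5A11 (48.9 to 61.1) and 45.5% without (36.5 to 54.8). Hypoblast-like nuclei with SLC5A11 were also deeper, at a median of 8424 against 6326 UMIs. Per nucleus, the Pearson correlation of log levels between pairs of the 4 genes was 0.13 to 0.28 over 828 nuclei of 1 library, -0.10 to 0.08 over the 392 hypoblast-like nuclei, -0.13 to 0.24 over the epiblast-like and -0.03 to 0.19 over the trophectoderm-like nuclei, as a description of sparse counts.

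The genes whose pattern over blastocyst nuclei was most like SPIC were FN1, TANC2, GPCPD1, AKAP12 and SLC4A7 (Pearson r of 0.34 to 0.38 over 828 nuclei, among 5758 genes). For SLC5A11 they were SASH1, TMEM132D, GPCPD1, TANC2 and SLC9A9 (0.45 to 0.47), and for FOXR1 they were FN1, STAT3, AKAP12, KIT and RUNX1 (0.38 to 0.40). Within hypoblast-like nuclei r was lower, at -0.04 to 0.12 for the list of SPIC, 0.08 to 0.19 for that of SLC5A11 and 0.11 to 0.19 for that of FOXR1. Within epiblast-like nuclei r for these lists was 0.03 to 0.28, -0.02 to 0.33 and -0.02 to 0.31. For trophectoderm-like nuclei it was 0.05 to 0.25, 0.11 to 0.22 and -0.02 to 0.07. FN1 encodes fibronectin, KIT is a receptor tyrosine kinase, and STAT3 transmits cytokine signals including that of LIF. These 4 lists with that of DISP3 hold 14 distinct genes. Of these, 13 were at least 2-fold lower in the blastoid, with a median of 18.6-fold over the 14, where 16.1% of 10301 genes were at least 2-fold lower, and none had fewer than 53 blastoid UMIs. They were picked for likeness to genes that were chosen for being low in the blastoid, so the count is no separate result. The exception was MEIS2, a homeodomain factor whose symbol belongs to 2 features. The feature alike to DISP3 (ENSBTAG00000065193) had 1530 blastoid and 1042 blastocyst UMIs, and the other had 63 and 21.

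DISP3 stood apart in its closest gene, MTOR, the kinase of the growth-control complexes, with r of 0.60 over all nuclei, 0.46 within hypoblast-like, 0.54 within epiblast-like and 0.11 within trophectoderm-like nuclei. MTOR lies near DISP3 in the RefSeq gene order of assembly ARS-UCD2.0, and the annotated genes do not overlap. In hypoblast-like nuclei MTOR was at 1342 CPM (1288 to 1399) in the 193 nuclei with DISP3 and at 660.2 CPM (621 to 702) in the 199 without. In epiblast-like nuclei it was at 1920.1 CPM (1822 to 2023) in 69 nuclei with DISP3 and 1340.1 CPM (1106 to 1609) in 10 without. In trophectoderm-like nuclei it was at 297 CPM (202 to 421) in 9 nuclei with DISP3 and 176 CPM (159 to 195) in 224 without. MTOR itself had 5368 UMIs in the blastocyst and 600 in the blastoid, 9.75-fold lower. The part of reads from 1 transcription unit assigned to the other was not tested. For the other 3 genes, the highest r within the hypoblast-like class among the measured neighbours, up to the second gene on either side, was 0.12, of CENATAC with FOXR1. In trophectoderm-like nuclei r was 0.24 for CENATAC with FOXR1 and 0.22 for MYBPC1 with SPIC, and in epiblast-like nuclei it was 0.22 for ARHGAP17 with SLC5A11.

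**Figure D5:**
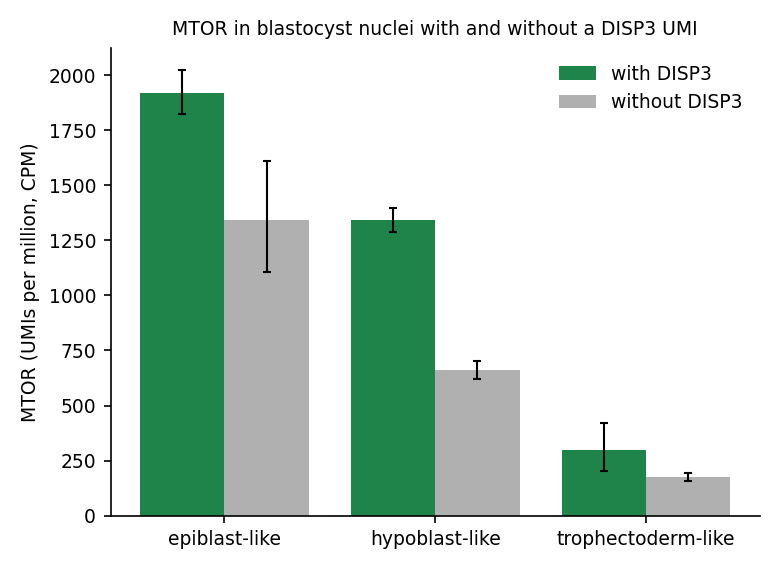
Bars give MTOR in CPM (y axis) for blastocyst nuclei with (green) and without (grey) a DISP3 UMI in 3 classes (x axis), and black lines are 95% Poisson intervals. MTOR is higher in nuclei with DISP3 in the hypoblast-like class (1342 against 660.2), in the epiblast-like class and, from 9 nuclei with DISP3, in the trophectoderm-like class (297 against 176).

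The trophectoderm-like classes of both libraries can be set side by side, at 2418981 blastoid and 2305418 blastocyst UMIs. SPIC had 0 UMIs in the blastoid class and 77 in the blastocyst class, 26.9-fold lower with the blastoid class set to a floor of 3 counts (exact lower limit 21.4). SLC5A11 had 1 and 111 UMIs, 38.8-fold lower with that floor and 116-fold as counted (20.5 to 4641). DISP3 had 0 and 9 UMIs, 3.15-fold lower with that floor (exact lower limit 2.07), and FOXR1 had 0 and 7, 2.45-fold lower (exact lower limit 1.51). The 4 genes were chosen for their few blastoid UMIs, so the low blastoid side of these ratios follows from the choice. With nuclei gated on markers the folds against the same floor were 63.4 for SPIC, 48.5 for SLC5A11, 8.08 for DISP3 and 16.2 for FOXR1. GATA2 had 811 and 1107 UMIs, 1.43-fold lower (1.31 to 1.57).

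The 7 blastoid UMIs came from 7 barcodes, each with 1 UMI of 1 of the genes, and none of these barcodes occurred in the blastocyst library. The unnamed cluster of 141 nuclei, with 1899486 of the library's 7481886 UMIs, held 5 of the 7. They were the SPIC UMI, in a nucleus of 28139 UMIs, 1 SLC5A11 UMI, in a nucleus of 8556 UMIs, and the 3 DISP3 UMIs, in nuclei of 14141, 16473 and 7041 UMIs. The other SLC5A11 UMI was in a trophectoderm-like nucleus of 15280 UMIs with 4 GATA2 UMIs, and the FOXR1 UMI was in a ribosomal-rich barcode of 1518 UMIs. Thus 6 of the 7 were in nuclei with over 4000 UMIs, which were 286 of the 1914 kept (14.9%) and held 57.5% of the library's UMIs.

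Relatives of the 4 genes that reached 10 UMIs over both libraries were mostly present in the blastoid. Such relatives were 22 of 25 ETS genes, 8 of 10 SLC5 genes and 25 of 44 FOX symbols measured. Over the 13875 genes whose summed UMIs reached 10, 17.4% were at least 2-fold lower in the blastoid and 24.5% at least 2-fold higher, and the median log2 ratio was -0.02. Of the 22 ETS family genes with that minimum, 4 were lower and 6 higher (median 0.19). Under the minimum, SPI1 had 3 blastoid and 4 blastocyst UMIs, SPIB 0 and 1, and FEV 0 and 0. ELF2 was 2.72-fold lower and ETV3 1.76-fold lower. Of 8 SLC5 transporters, 1 was lower and 2 higher (median -0.32). SLC5A6, the vitamin transporter of the family, had 143 and 132 UMIs in blastoid and blastocyst, and SLC5A1, a glucose transporter, had 0 and 18. Of 10 genes of inositol transport and metabolism, 2 were lower and 3 higher (median 0.37), and SLC2A13, the proton-coupled inositol transporter, had 4829 and 2235 UMIs.

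Of 18 genes of the patched, dispatched, sterol-sensing and hedgehog list, 5 were lower and 8 higher (median 0.22). DISP1, which releases hedgehog ligands, was 3.09-fold lower, while the hedgehog effector GLI3 had 3863 blastoid and 1103 blastocyst UMIs. Of 25 genes with symbols starting FOX, 8 were lower and 3 higher (median -0.76), and 4 were lower with at least 4000 UMIs per barcode. Of these 25, FOXRED1 and FOXRED2 are oxidoreductases, and without them 6 of 23 forkhead genes were lower and 3 higher (median -0.59). FOXO3 was 2.82-fold lower and FOXP1 1.30-fold lower, and FOXR2, the closest relative of FOXR1, had no UMI in either library. Of 9 iron and heme genes, 1 was lower and 4 higher (median 0.92). TFRC, the transferrin receptor, was 5.69-fold lower, and the ferritin gene FTH1 had 8947 blastoid and 1723 blastocyst UMIs. Macrophage markers were near 0 in the blastocyst, with 135 UMIs over 13 genes and none of C1QA, C1QB or CD163. The naive pluripotency list differed from these, with 13 of 15 genes lower and 1 higher (median -3.29). TFCP2L1 was 10.8-fold lower, ESRRB 6.30-fold and KLF5 5.29-fold. Each gene of these lists with at least 100 blastocyst UMIs had more than 3 in the blastoid.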

How the data were processed

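Single-nucleus RNA was measured in 1 blastoid and 1 blastocyst library. The authors deposited 10x UMI counts per gene for 1957 blastoid and 944 blastocyst barcodes; per the file headers they were made with Cell Ranger 7.2.0, while per the submitters' processing notes Cell Ranger 7.1.0 and Seurat 4.3.0 were used. The genome build and the strand setting are not given in the sources used here. Barcodes with at least 500 genes and under 10% mitochondrial UMIs were kept (python 3.11.15, scanpy 1.11.5), and Scrublet removed 30 blastoid and 5 blastocyst barcodes as doublets. Nuclei were clustered per library (2000 variable genes, 30 components, 15 neighbours, Leiden resolution 0.5; 1.0 for the finer clustering) without the 4 genes and the marker genes. A cluster took a lineage name with at least 3 markers, each with at least 100 UMIs and 1.5-fold higher than in other nuclei, and 2 times the markers of any other list. The name was refused where the leading genes of the cluster held more markers of another list than of the named lineage. A named cluster whose median depth was below that of the library divided by 3 was called shallow, and clusters over 5% ribosomal protein UMIs ribosomal-rich. A shallow cluster also needed a marker of its lineage among its leading genes.

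Levels are sums of counts per 1000000 UMIs (CPM) with exact 95% Poisson intervals, ratios have exact conditional intervals, and shares have exact Clopper-Pearson intervals. Counts under 3 were set to 3 in ratios of related genes. Because each group is 1 library, no test was made. The ratios and their intervals were checked on simulated Poisson counts, and thinning was checked for its depth only. Doublet removal, clustering, naming, gating, co-detection and correlations were not checked in this way. The 4 genes and all lists were chosen with earlier results of these data known. Named besides the 4 genes are, for each list, up to 4 genes with the most blastocyst UMIs. Also named are the 5 genes most correlated with each of the 4 (at least 200 UMIs). The 5 next in the ranking by ratio (at least 100 UMIs and 50 blastocyst CPM) are named too. Lineage and macrophage markers (those at 0 included), PIWIL2, genes leading clusters, neighbouring genes, FOXRED1, FOXRED2, FOXR2, SPIB, FEV and SLC5A1 were named after their values were seen. Alternatives covered filters, doublets, clustering, gating, thinning, scaling and minimum counts.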

Additional observations from a re-analysis of the deposited data

How the results depend on the processing

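With 1 library per group, no replicate could be left out, and intervals cover counting error only. No paired analysis was possible because each group has 1 library. The blastoid side rests on 7 UMIs of the 4 genes, at a total library depth similar to that of the blastocyst. All 22 alternative values of the blastoid to blastocyst log2 ratio that could be computed stayed inside the intervals given in the report; FOXR1 had 0 UMIs, and so no ratio, with at least 1000 genes or 4000 UMIs per barcode. The causes of the movements below were not tested unless stated.

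The epiblast-like class depended on the settings. Without doublet removal, with at least 4000 UMIs, at resolution 0.3 and after thinning before clustering, no cluster took its name, so those settings gave no epiblast-like value, and thinning before clustering left no blastoid trophectoderm-like class to compare. With at least 1000 genes the name went to another cluster of 35 nuclei, of which 0 came from the original class and 28 from the shallow cluster. Its log2 ratio over trophectoderm-like nuclei was 3.18 for SPIC, 0.0048 for SLC5A11 and 2.66 for DISP3. Over hypoblast-like nuclei it was 0.73 for SPIC, -1.84 for DISP3 and -2.57 for SLC5A11, each opposite in sign, and -1.79 for FOXR1, and the shares of its nuclei were 14.3% for SLC5A11 and DISP3 and 17.1% for FOXR1. At resolution 1.0 the log2 ratio of epiblast-like over hypoblast-like nuclei was 0.075 for SPIC, opposite in sign, 0.85 for DISP3 and -0.59 for FOXR1, with FOXR1 in 47.1% of epiblast-like nuclei. That class of 68 nuclei left out the 16 nuclei with DISP3 at 277 CPM and no FOXR1 UMI, which took no name. With at least 200 genes the SPIC log2 ratio of epiblast-like over trophectoderm-like nuclei was 2.27, and the SLC5A11 log2 ratio of epiblast-like over hypoblast-like nuclei was -0.12, opposite in sign.

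Every alternative left all 4 genes higher in hypoblast-like than in trophectoderm-like nuclei. That log2 ratio moved to 2.45 for SPIC with at least 1000 genes, and to 2.61 for SPIC and 2.65 for SLC5A11 with at least 4000 UMIs. Marker gates gave 1.93 for SPIC and 2.88 for FOXR1. Gates also gave epiblast-like over trophectoderm-like log2 ratios of 1.90 for SPIC, 4.22 for DISP3 and 2.68 for FOXR1, and epiblast-like over hypoblast-like ratios of -0.029 for SPIC, -0.16 for SLC5A11 (opposite in sign), 0.28 for DISP3 and -0.19 for FOXR1. Gated DISP3 shares were 54.5% in hypoblast-like, 57.9% in epiblast-like and 7.47% in trophectoderm-like nuclei, and the FOXR1 share in the last was 9.54%.

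Pooling the shallow cluster with the trophectoderm-like class, an alternative chosen after seeing the data, gave hypoblast-like over trophectoderm-like log2 ratios of 2.04 for SPIC, 3.90 for DISP3 and 3.51 for FOXR1, and epiblast-like ones of 1.75, 5.02 and 2.21. The trophectoderm-like share was then 19.6% for SLC5A11 and 6.72% for FOXR1.

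Inside the trophectoderm-like classes, the fold by which the blastoid was lower, with counts under 3 set to 3, was 34.1 for SPIC with at least 200 genes, 37.5 for SPIC with at least 1000 genes and 21.0 for SLC5A11 with at least 4000 UMIs. Marker gates gave 63.4 for SPIC, 48.5 for SLC5A11, 8.08 for DISP3 and 16.2 for FOXR1, and pooling gave 53.3 for SPIC, 6.11 for DISP3 and 9.31 for FOXR1.

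Thinning to 2000 UMIs, which leaves fewer UMIs by construction, lowered the shares. In hypoblast-like nuclei they were 33.1% for SPIC, 33.6% for SLC5A11, 16.9% for DISP3 and 20.1% for FOXR1, in epiblast-like nuclei 35.4%, 34.2%, 36.7% and 12.7%, and in trophectoderm-like nuclei 5.22%, 8.70%, 0.870% and 0.435%. With thinning before clustering, the hypoblast-like shares were 32.9%, 35.5%, 17.4% and 20.2% and the trophectoderm-like shares 5.15%, 8.15%, 1.29% and 0.429%. The share of all nuclei with 2 or more of the genes was 51.4%, and it was 55.6% with at least 1000 genes, 59.7% with at least 4000 UMIs and 18.7% after thinning. Within classes it was 80.4% in hypoblast-like, 92.4% in epiblast-like and 8.58% in trophectoderm-like nuclei.

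Of the lists, the number of genes at least 2-fold lower in the blastoid was 4 for the FOX list with at least 4000 UMIs per barcode and 4 with at least 100 UMIs per gene. Leaving out the FOXRED genes, chosen after seeing the data, gave 6. It was 1 for the inositol list after median-ratio scaling, which moved the median of 7829 genes by -0.25. With at least 100 UMIs per gene it was 0 for the SLC5 transporters and 3 for the hedgehog list.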
